A study of Mus musculus with 15 samples.

Results

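A set of 36 genes that mark the endothelium or let leukocytes adhere to it was examined in the colon mucosa of mice with chemically induced chronic colitis, with and without filgotinib, an inhibitor that prefers the kinase JAK1. The 36 members are a list of endothelial markers and adhesion molecules given by gene name, drawn up with earlier results of these data known. Of them, 29 had a probe well above background on at least 5 of 15 arrays and are among the 22012 genes tested, and 7 (Flt4, Tek, Tie1, Apln, Sele, Madcam1 and Sox7) did not. All mice were female Balb/cJ, 8 weeks old at the start, and each of the 15 arrays held RNA of 1 mouse, scraped from the mucosa of the most distal 30 mm of the colon. The water group of 5 mice drank plain water. The labels give their compound as vehicle control whereas the design names drinking water alone, so whether they were gavaged is not settled here. The DSS vehicle group of 5 mice drank 4% dextran sodium sulfate (DSS), which injures the colonic epithelium, in 3 cycles of 4 days with washouts of 3 days, and received the vehicle of filgotinib. The filgotinib group of 5 mice drank DSS in the same way and was gavaged daily with 30 mg/kg of filgotinib.

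Endothelial cells line blood and lymphatic vessels, are held together by cadherin and immunoglobulin-like proteins at their junctions, and are kept alive and shaped by receptors for VEGF, angiopoietins, apelin and adrenomedullin. In inflamed gut, venules slow passing leukocytes with selectins and then hold them with ICAM-1, VCAM-1 and MAdCAM-1, whose ligands are integrins on the leukocytes. Cytokines such as TNF and IL-1β raise these adhesion molecules through NF-κB, and interferons do so through JAK kinases and STAT factors.

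The sequences that matter here are those of the probes behind the member that changed, Ramp3, and behind Icam1, and the promoters in which a STAT pattern was found. The array held 59 probes for the 36 members, of which 35 were well above background on at least 5 arrays and 15 on none. Ramp3 had 2 probes of 60 bases on mouse chromosome 11 (mm9, plus strand, chr11:6577416-6577475 and chr11:6577424-6577483), which share 52 bases and so are not independent of each other. Their first 30 bases are printed with the bases common to both stretches in capitals.
Ramp3 probe 1: tgagtgtgCTCAAGGGTTCTGTCTGCTGAT
Ramp3 probe 2: CTCAAGGGTTCTGTCTGCTGATgtcagttc
Icam1 also had 2 probes of 60 bases, on chromosome 9 (mm9, plus strand, chr9:20833186-20833245 and chr9:20832290-20832349), and their first 30 bases are shown because the first was well above background on 15 of 15 arrays and the second on none.
Icam1 probe 1: ctgtgggagggtaagcaaccctcccagcac
Icam1 probe 2: cctcttatgtttataaccgccagagaaaga

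RefSeq's promoter table (GRCm38.p6, 250 bases before to 50 after each start) held 19 of the 36 members. The STAT pattern TTCNNNGAA (N is any base), searched on both strands, was in the windows of 2 of the 19, Sele and Icam1, and in 8.3% of all 32851 windows. The longer STAT pattern, TTC and GAA with any 4 bases between them, was in 1 of the 19, Emcn, and in 6.95% of all windows. The NF-κB pattern, GGG and CC with any 5 bases between them, was in 14 of the 19 and in 50.8% of all windows. The 250 bases before the start are printed for the carriers of TTCNNNGAA and for Ramp3, with every match in capitals, and a match is a run of letters and not a shown binding site.
Icam1 promoter, chr9:21015690-21015939, plus strand: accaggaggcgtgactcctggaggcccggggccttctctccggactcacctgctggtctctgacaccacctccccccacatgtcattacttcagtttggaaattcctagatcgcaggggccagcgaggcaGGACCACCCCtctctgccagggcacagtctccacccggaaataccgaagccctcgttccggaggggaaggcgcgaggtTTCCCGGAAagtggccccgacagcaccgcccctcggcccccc
Sele promoter, chr1:164047984-164048233, plus strand: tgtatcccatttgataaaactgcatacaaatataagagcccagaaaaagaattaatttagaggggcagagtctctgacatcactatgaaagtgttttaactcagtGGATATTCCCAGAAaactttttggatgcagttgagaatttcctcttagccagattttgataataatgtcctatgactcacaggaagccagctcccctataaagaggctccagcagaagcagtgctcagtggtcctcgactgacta
Ramp3 promoter, chr11:6658283-6658532, plus strand: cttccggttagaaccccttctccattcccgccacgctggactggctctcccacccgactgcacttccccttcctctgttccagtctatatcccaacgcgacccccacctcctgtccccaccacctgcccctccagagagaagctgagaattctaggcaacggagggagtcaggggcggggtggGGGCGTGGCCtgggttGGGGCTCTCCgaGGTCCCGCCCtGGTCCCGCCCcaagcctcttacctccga
In Icam1 the STAT match TTCCCGGAA lay 42 to 34 bases before the start, and an NF-κB match lay 120 to 111 bases before it. In Sele the STAT match TTCCCAGAA lay 140 to 132 bases before the start and overlapped an NF-κB match at 145 to 136. In Ramp3 the capitals mark 4 NF-κB matches, and neither STAT pattern was found in its window.

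Array brightness is given as scaled signal, the background-subtracted signal divided by the array's 75th percentile and multiplied by 652, the geometric mean of that percentile. The 75th percentile itself was 684 to 813 in the water group, 570 to 667 in the DSS vehicle group and 552 to 663 in the filgotinib group, and 50.2% to 62.1% of probes were well above background. Brightness serves to choose which probes and genes to name, and signals of different probes are not compared as amounts of RNA. Groups were compared with limma over all genes, with Benjamini-Hochberg adjustment, and an adjusted p under 0.05 counted as a call. The arrays lay on 6 slides, and most slides held mice of 1 group, so slide and group could be separated only in part. In this bulk tissue, fewer endothelial cells and less RNA per cell cannot be told apart. As a check of the tissue, all 10 epithelial genes were well above background on 15 of 15 arrays.

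One member changed with DSS. Ramp3, which encodes an accessory protein that turns the calcitonin-receptor-like receptor into a receptor for adrenomedullin, fell in mice given DSS and vehicle, and it rose in those given filgotinib relative to DSS and vehicle. Across all genes, 19.2% were called in DSS vehicle against water, 10.8% as higher and 8.41% as lower. Of the 29 measured members, 0 were called higher and 1 lower, and 2 had an unadjusted p under 0.05 in limma, so the members' share lay below that of all genes. In filgotinib against DSS vehicle, 11.3% of all genes were called, 6.79% as higher and 4.53% as lower, against 1 member higher and 0 lower. In filgotinib with DSS against water, 9.83% of all genes were called, 6.42% as higher and 3.41% as lower, against 0 of the 29 members, with 2 at an unadjusted p under 0.05. In each of these comparisons the groups overlapped for 29 of the 29 measured members, while 16%, 7.99% and 9.57% of all genes, in the same order, had groups that did not overlap. Any pair of the comparisons shares a group of mice, and the first and second share the DSS vehicle mice, so an opposite sign in them is not independent evidence.

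Ramp3 had a scaled signal of 433, 410, 354, 244 and 506 in the 5 water mice. It was 83.9, 120, 137, 154 and 251 in the DSS vehicle mice. It was 271, 375, 483, 161 and 258 in the filgotinib mice. 4 of 5 DSS vehicle mice lay below every mouse of the water group and 4 of 5 filgotinib mice lay above every DSS vehicle mouse. The groups still overlapped, since DSS vehicle mouse 5 reached into the water range and filgotinib mouse 4 into the DSS vehicle range. The log2 fold change in DSS vehicle against water was −1.44 ± 0.31 (SE, n = 5 per group, 95% interval −2.11 to −0.77, limma adjusted p = 0.00675). Filgotinib against DSS vehicle gave +1.05 ± 0.31 (95% interval 0.38 to 1.72, limma adjusted p = 0.0451). Filgotinib with DSS against water gave −0.39 ± 0.31 (95% interval −1.06 to 0.28, limma adjusted p = 0.448).

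The 2 calls on Ramp3 were not equally firm. The second probe, fitted among all probes, gave −1.32 in DSS vehicle against water (limma adjusted p = 0.012) and +0.83 in filgotinib against DSS vehicle (limma adjusted p = 0.107). The DSS call remained in each of the 15 fits that left out 1 mouse, whereas the filgotinib call remained in 3 of those 15 and was lost in 12, with adjusted p up to 0.114. Within the slides that held both groups, the log2 difference was −1.82 between 1 DSS vehicle mouse and 2 water mice, and +1.104 between 2 filgotinib mice and 3 DSS vehicle mice. With slide as a fixed block both calls were lost, at adjusted p = 0.228 for DSS and 0.177 for filgotinib, and the share of all genes called fell to 0.382% and 1.99%.

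**Figure D1:**
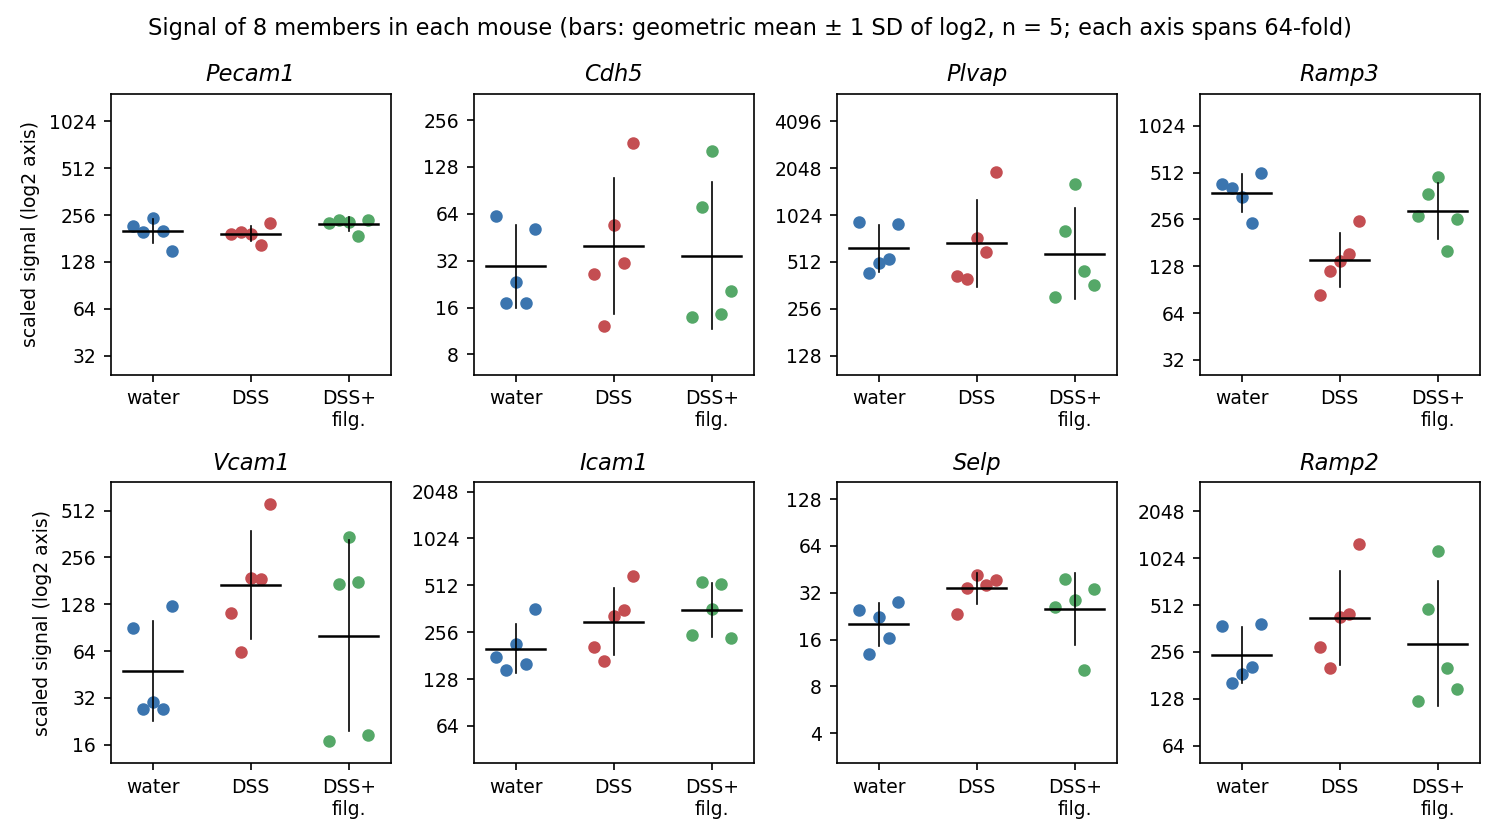
Scaled signal on a log2 axis of 8 members in each mouse by group, with 1 point per mouse and bars for the geometric mean ± 1 SD of log2 values (n = 5), every axis spanning the same number of doublings. Ramp3 is lower with DSS and vehicle, and Pecam1 lies between 152 and 246 in all 15 mice. Ramp3 and the other 6 members vary more widely than Pecam1 within the groups.

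Adm and Calcrl encode the ligand adrenomedullin and the receptor that RAMP2 and RAMP3 accompany. Adm had 1525, 853, 2449, 1285 and 1252 in the water group, 471, 628, 726, 639 and 637 with DSS and vehicle, and 1613, 748, 746, 837 and 1378 with filgotinib. Every DSS vehicle mouse lay below every water mouse and below every filgotinib mouse. Adm fell in DSS vehicle against water (log2 −1.17 ± 0.27 SE, limma adjusted p = 0.00926), and filgotinib against DSS vehicle gave +0.71 (limma adjusted p = 0.0999). Calcrl, named after its values were seen because of this partnership, ranged from 60.9 to 131 in the water group, from 39.4 to 323 with DSS and vehicle and from 33.0 to 248.6 with filgotinib, and it was not called. Ramp2, the family member known as essential for vessel formation in mice, had 375, 161, 185, 205 and 389 in the water group. Its signal was 276, 201, 430, 446 and 1264 with DSS and vehicle and 124, 485, 1140, 203 and 147 with filgotinib. 3 of 5 DSS vehicle mice lay above every water mouse, and Ramp2 was not called (log2 +0.78 ± 0.60 in DSS vehicle against water, limma adjusted p = 0.38), with its second probe at +0.81.

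**Figure D2:**
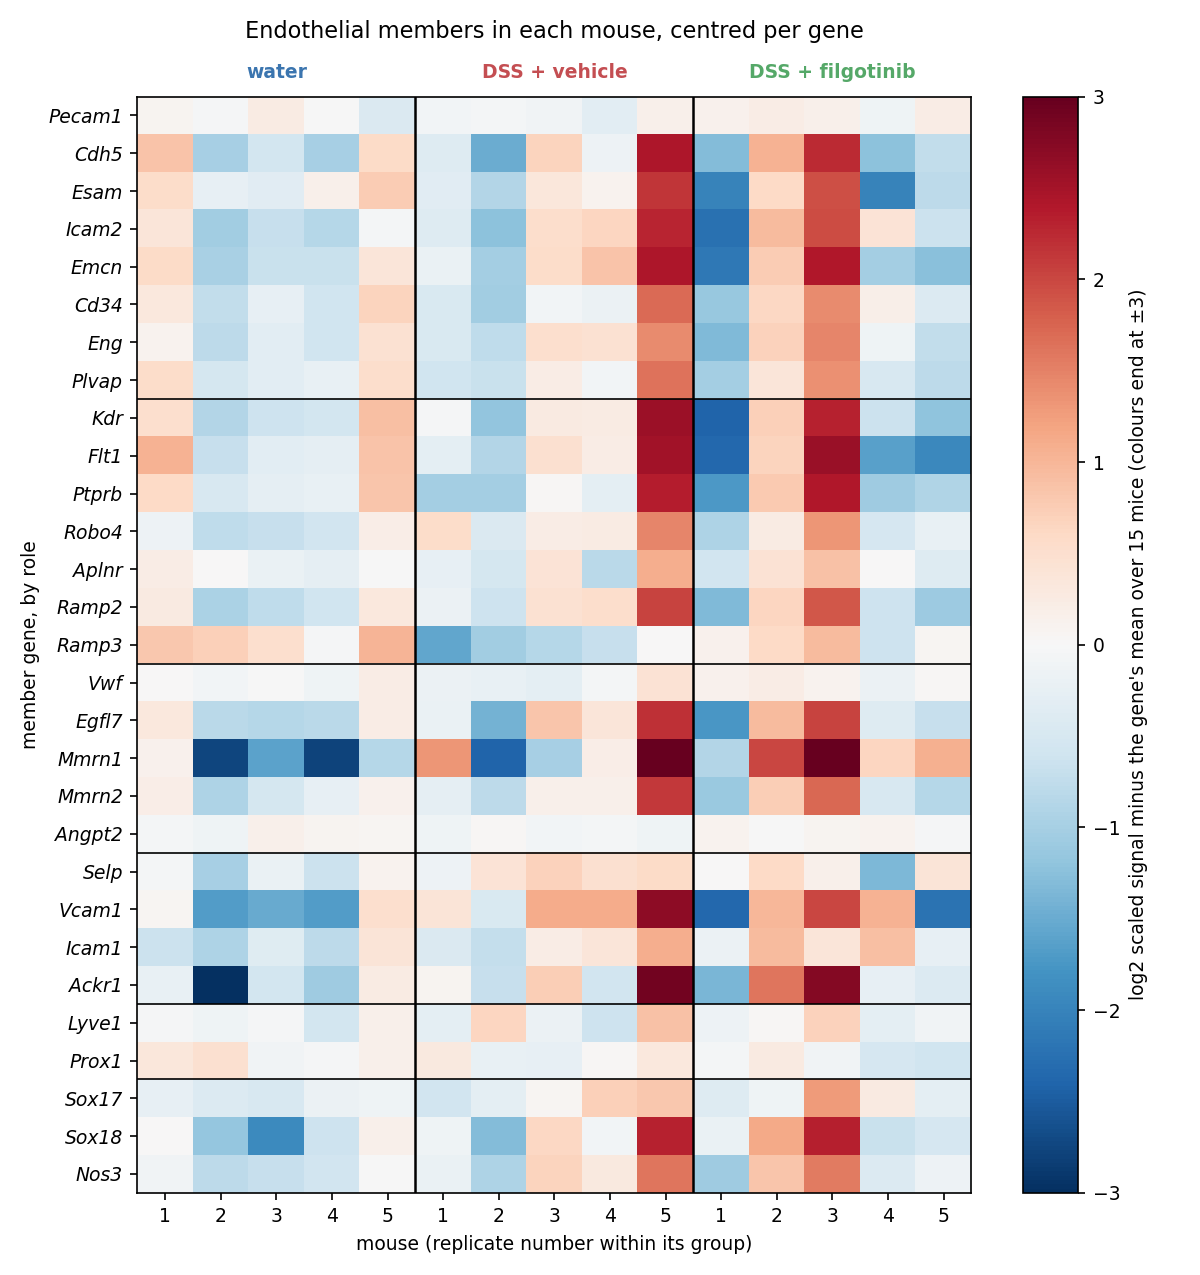
Log2 scaled signal of the 29 measured members (rows, ordered by role, with lines between roles) in the 15 mice (columns, by group), each gene centred on its mean over all mice, with colours ending at ±3. DSS vehicle mouse 5 and filgotinib mouse 3 are high and filgotinib mouse 1 is low in most rows, while Pecam1, Vwf and Angpt2 stay near their mean in all mice and Ramp3 is lower with DSS and vehicle.

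Most members varied widely between mice of the same group. Their median within-group SD was 0.89 on the log2 scale, against 0.19 over all genes, and 24 of the 29 lay in the highest 10 percent of genes by that SD. DSS vehicle mouse 5 was the highest of all 15 mice for 19 of the 29 members and filgotinib mouse 3 for 5, and these were the highest pair for 22 of the 29. The array of filgotinib mouse 3 was alone on its slide and on its scan day, so mouse, slide and scan day cannot be told apart there. Filgotinib mouse 1 was the lowest of all mice for 15 members. The SE of a log2 fold change was therefore large, with a median of 0.52 over the 29 members. In DSS vehicle against water, the 95% interval stayed within a 2-fold change either way for 6 members (Pecam1, Aplnr, Vwf, Angpt2, Lyve1 and Prox1), and it included a change of at least 2-fold in both directions for 6 others (Cdh5, Esam, Cd34, Kdr, Flt1 and Ptprb). The lack of a call on such genes does not show that they were unchanged.

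The junction and surface proteins show this pattern. Cdh5, VE-cadherin of the endothelial junction, had 61.9, 17.2, 23.4, 17.2 and 51.4 in the water group, 26.3, 12.2, 54.5, 31.0 and 184 with DSS and vehicle, and 13.9, 70.9, 162, 14.6 and 20.4 with filgotinib. It was well above background on 8 of 15 arrays, and 1 of 5 DSS vehicle mice and 2 of 5 filgotinib mice lay above every water mouse. Plvap, which forms the diaphragms of fenestrated capillaries, had 923, 437, 503, 536 and 898 in the water group, 414, 395, 730, 596 and 1950 with DSS and vehicle, and 306, 805, 1614, 450 and 366 with filgotinib. One mouse in each DSS group stood well above the others. Pecam1, CD31 of endothelial cells, platelets and leukocytes, behaved differently, with 217, 200, 246, 203 and 152 in the water group, 194, 199, 193, 165 and 228 with DSS and vehicle, and 226, 239, 230, 187 and 239 with filgotinib. Its log2 fold change was −0.05 ± 0.12 in DSS vehicle against water and +0.20 ± 0.12 in filgotinib against DSS vehicle (limma adjusted p = 0.815 and 0.303), and its within-group SD of 0.20 was close to that of the median gene. Esam and Icam2, immunoglobulin-like proteins of the junction and surface, ranged over all mice from 17.9 to 319 and from 19.8 to 452. Emcn, a sialomucin of veins and capillaries, ranged from 19.8 to 471. Cd34, also on fibroblast-like cells, and Eng, a co-receptor for TGF-β family ligands, ranged from 345 to 2459 and from 29.4 to 206. None of the 8 genes of this role was called, and their log2 fold changes in DSS vehicle against water lay between −0.05 and 0.83.

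Among the receptors, Kdr, the main signalling receptor for VEGF-A, had 93.9, 36.1, 43.2, 45.1 and 124 in the water group. It had 64.8, 29.1, 80.0, 79.2 and 395 with DSS and vehicle and 12.6, 110, 328, 42.4 and 28.8 with filgotinib, so the highest mouse exceeded the lowest 31.4-fold. Flt1, which also binds VEGF-A and occurs as a soluble decoy form, ranged from 58.1 to 613 with DSS and vehicle and from 20.9 to 645 with filgotinib. A second Flt1 probe above background gave +0.20 in DSS vehicle against water and −0.47 in filgotinib against DSS vehicle, in the direction of the first probe (+0.28 and −0.94), with no call on either. Ptprb, the phosphatase that restrains TIE2 and VE-cadherin signalling, ranged from 45.9 to 801 over all mice. Robo4, a guidance receptor that stabilises vessels, had 328, 216, 226, 249 and 424 in the water group and 538, 272, 426, 439 and 1012 with DSS and vehicle. 4 of 5 DSS vehicle mice lay above every water mouse, the lowest of them narrowly, and the difference of +0.81 ± 0.40 was not called (limma adjusted p = 0.17). Aplnr, the apelin receptor, was dim, at 14.5 to 53.9, and was well above background on 6 of 15 arrays. Its ligand gene Apln was well above background on 3 of 15 arrays, 2 of them in the water group, with signals from 5.18 to 42.1. Flt4, the VEGF-C receptor of lymphatics, was well above background on 0 of 15 arrays, Tek (TIE2) on 3 and its partner Tie1 on 2, so no level can be given for them in most mice.

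Of the secreted and matrix genes, Vwf, which encodes the von Willebrand factor of endothelium and platelets, had 801, 744, 780, 719 and 921 in the water group, 699, 676, 642, 752 and 1074 with DSS and vehicle, and 857, 926, 846, 697 and 806 with filgotinib. The log2 fold change was −0.07 ± 0.13 in DSS vehicle against water and +0.13 ± 0.13 in filgotinib against DSS vehicle. Of 2 other Vwf probes, well above background on 9 and 12 of 15 arrays, neither was called. They gave −0.43 and −0.06 in DSS vehicle against water and differed in sign in filgotinib against DSS vehicle (+0.49 and −0.16). Angpt2, the TIE2 ligand that loosens vessels, varied least, from 537 to 650 over all mice, with −0.09 ± 0.06 and +0.12 ± 0.06 in the same comparisons. The brightest probes of Pecam1, Vwf and Angpt2, which represent these genes, were well above background on 15 of 15 arrays. They varied little between mice, with the highest mouse at most 1.67-fold above the lowest. The reason for this difference from the other endothelial genes was not tested. Egfl7, a matrix protein made by endothelium, ranged from 155 to 2391. Mmrn2, an endothelial matrix glycoprotein, ranged from 113 to 1066. Mmrn1, known from platelets and lymphatic endothelium, had 26.5, 3.56, 7.93, 3.54 and 13.4 in the water group, 60.4, 4.60, 12.1, 27.6 and 335 with DSS and vehicle, and 13.1, 96.0, 202, 37.7 and 50.8 with filgotinib. It was well above background on 1, 2 and 3 arrays of these groups. Its log2 difference of +2.75 ± 1.03 in filgotinib with DSS against water was not called (limma adjusted p = 0.0963) and rests on a water group mostly at background, and it was +1.17 with normexp background correction.

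**Figure D3:**
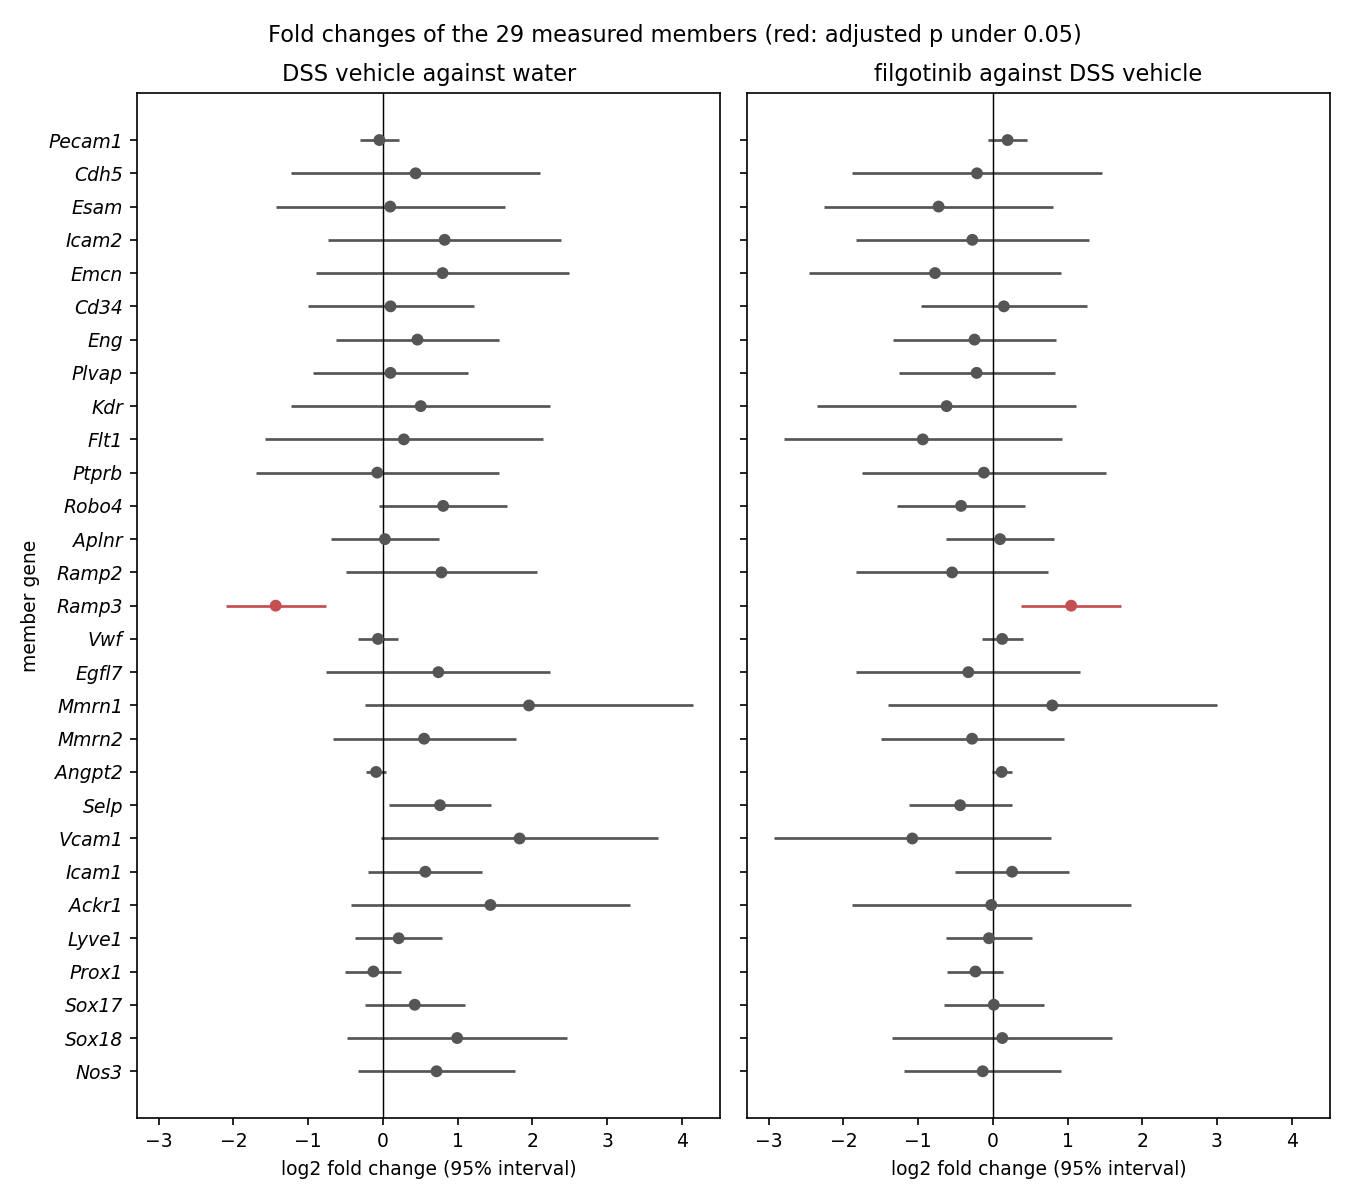
Log2 fold changes with 95% intervals of the 29 measured members in DSS vehicle against water (left) and filgotinib against DSS vehicle (right), with members called at an adjusted p under 0.05 in red. Ramp3 alone is red, at −1.44 and +1.05, and the other intervals are mostly wide and cross 0.

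None of the 4 measured leukocyte adhesion genes was called in any comparison. Vcam1, which binds the integrin α4β1, had 90.2, 27.1, 30.3, 27.2 and 124 in the water group. It had 113, 63.5, 188, 187 and 561 with DSS and vehicle and 17, 172, 348, 179 and 18.6 with filgotinib. The filgotinib mice split, with 2 below every water mouse and 3 above every one. However, Vcam1 was well above background on only 3 of 5 filgotinib arrays, while all arrays of water and DSS vehicle mice passed. Signals near background therefore limit the reading of this split. The log2 fold change was +1.83 ± 0.86 in DSS vehicle against water (limma adjusted p = 0.152). It was −1.08 ± 0.86 in filgotinib against DSS vehicle (limma adjusted p = 0.444). Icam1, the ligand of the integrin LFA-1, had 178, 147, 215, 160 and 363 in the water group. It had 205, 168, 323, 358 and 592 with DSS and vehicle and 244, 536, 359, 522 and 234 with filgotinib. The range of the filgotinib mice lay inside that of the DSS vehicle mice, and the log2 fold change was +0.26 ± 0.36 between these groups (95% interval −0.51 to 1.02) and +0.57 ± 0.36 in DSS vehicle against water (limma adjusted p = 0.679 and 0.279). Filgotinib with DSS against water gave +0.83 ± 0.36 (95% interval 0.06 to 1.59, limma adjusted p = 0.143). Selp, P-selectin of venules and platelets, had 24.7, 12.9, 22.4, 16.4 and 27.8 in the water group, 23.2, 34.5, 41.5, 35.9 and 38.6 with DSS and vehicle, and 26.0, 39.4, 28.7, 10.2 and 33.8 with filgotinib. 4 of 5 DSS vehicle mice lay above every water mouse, and the difference of +0.76 ± 0.32 was not called (limma adjusted p = 0.109), but Selp was well above background on only 5 of 15 arrays. It was called higher in that comparison with normexp background correction (adjusted p = 0.00378), with the 2 groups alone (adjusted p = 0.0374) and without filgotinib mouse 4 (adjusted p = 0.0239). Ackr1, listed as Darc, a chemokine-binding protein of venules, ranged from 3.55 to 38.1 in the water group, from 19.8 to 237 with DSS and vehicle and from 12.5 to 214 with filgotinib.

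Sele, E-selectin, was well above background on 0 of 15 arrays, with signals from 3.35 to 9.83, and Madcam1, the gut venule ligand of the integrin α4β7, on 2 of 15, with signals from 6.83 to 35.6. Their mRNA was not detectable at this brightness in most mice, which does not show that it was absent. Over the 4 measured adhesion genes the median log2 fold change in DSS vehicle against water was +1.102, against 0.05 over all 22012 genes and 0.46 over the 29 members, and in filgotinib against DSS vehicle it was −0.23. Both medians lay midway between Selp and Ackr1 (+0.76 and +1.44, then −0.44 and −0.02), which were dim. In the water, DSS vehicle and filgotinib groups, Selp was well above background on 1, 3 and 1 arrays and Ackr1 on 2, 3 and 2. The medians therefore do not show a rise of the adhesion genes as a set. Over the 15 members with a probe well above background on 15 of 15 arrays, the median in DSS vehicle against water was 0.10, with 9 positive. Within the slide that held both groups, with 1 DSS vehicle mouse and 2 water mice, Vcam1, Icam1, Selp and Ackr1 gave +0.05, −0.73, +0.47 and −0.54, and Selp and Ackr1 were well above background on 5 and 7 of 15 arrays.

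Lyve1 and Prox1 mark lymphatic endothelium. Lyve1, a hyaluronan receptor that some macrophages also make, had 235, 219, 233, 164 and 267 in the water group, 196, 373, 213, 157 and 445 with DSS and vehicle, and 216, 247, 390, 197 and 223 with filgotinib. Prox1, the transcription factor of lymphatic identity, also made by enteroendocrine cells, ranged from 80.9 to 169. The 2 Prox1 probes, both well above background on 15 of 15 arrays, differed in sign in filgotinib against DSS vehicle (−0.23 and +0.13), and neither was called. Sox17 and Sox18, factors of arterial and early lymphatic endothelium, were each well above background on 8 of 15 arrays, with ranges of 22.3 to 80.4 and 7.52 to 143. Sox7 was well above background on 1 of 15. Nos3, the endothelial nitric oxide synthase, had 106, 65.9, 70.4, 77.4 and 114 in the water group, 98.8, 60.6, 181, 139 and 346 with DSS and vehicle, and 54.3, 203, 335, 85.9 and 103 with filgotinib. 3 of 5 DSS vehicle mice exceeded every water mouse, and the difference of +0.72 ± 0.49 was not called (limma adjusted p = 0.321).

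Gene lists of other cell types varied between the same mice. The median over the 29 members of the log2 signal, each gene centred over all mice, was 1.69 in DSS vehicle mouse 5, 1.55 in filgotinib mouse 3 and −1.07 in filgotinib mouse 1. The median over 10 fibroblast genes was 2.17, 2.04 and −2.94 in these mice. The smooth muscle median was 0.96, 1.01 and −0.79, and the mural cell median was 0.86, 0.55 and −0.11. The smooth muscle median was highest in DSS vehicle mouse 1, at 1.75, and lowest in DSS vehicle mouse 2, at −0.85, and the mural cell median was lowest in DSS vehicle mouse 2, at −0.48. The leukocyte median was 1.21, 0.12 and −0.76 in DSS vehicle mouse 5, filgotinib mouse 3 and filgotinib mouse 1, and the median over 10 epithelial genes stayed between −0.22 and 0.14 in all 15 mice. By group, the fibroblast median ranged from −1.72 to 0.83 in the water group, from −0.37 to 2.17 with DSS and vehicle and from −2.94 to 2.04 with filgotinib. The part that the amount of stromal tissue in the scraping has in the endothelial values was not tested.

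**Figure D4:**
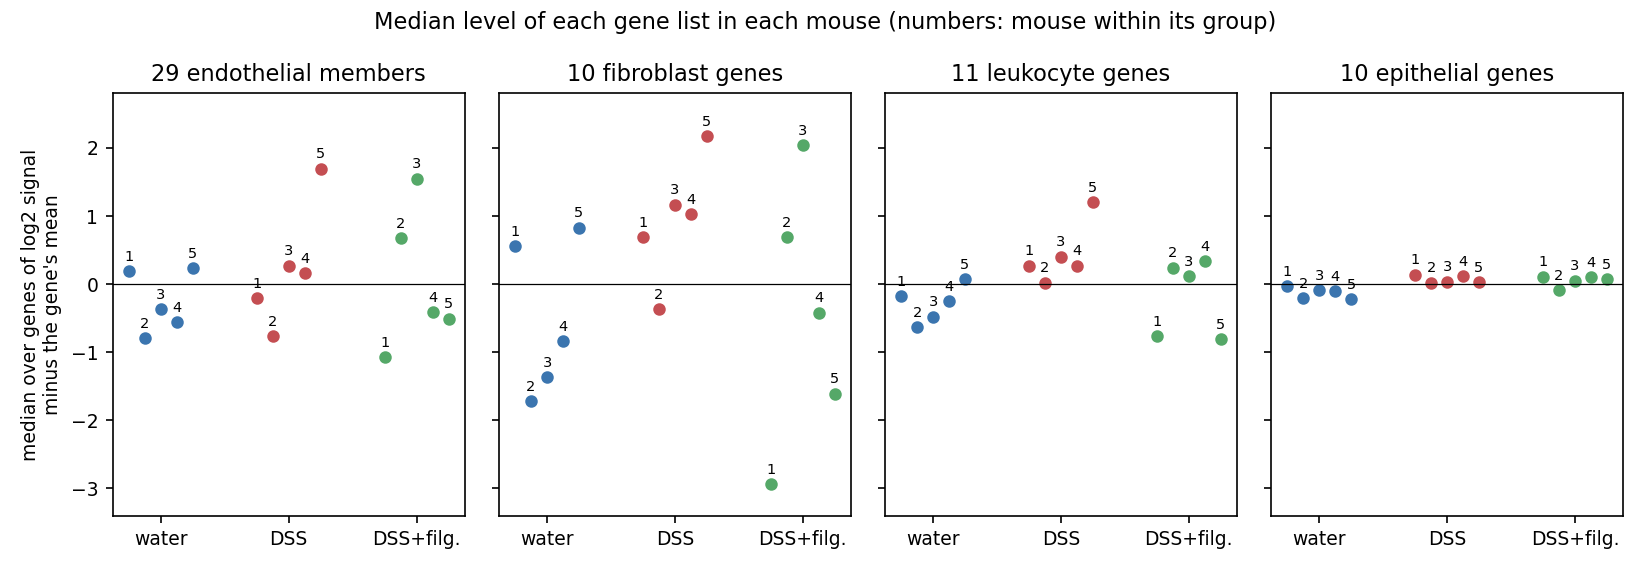
Median over the genes of each list of the log2 scaled signal, each gene centred over 15 mice, with 1 point per mouse numbered within its group, for the 29 endothelial members and the fibroblast, leukocyte and epithelial lists. The endothelial and fibroblast medians are both highest in DSS vehicle mouse 5 and filgotinib mouse 3 and lowest in filgotinib mouse 1, and the epithelial medians lie between −0.22 and 0.14.

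Ramp3 followed this variation in part, since DSS vehicle mouse 5 and filgotinib mouse 3 were also the highest of their groups for Ramp3. Its centred log2 signal minus the median of the other 28 measured members was 0.64, 1.52, 0.94, 0.54 and 0.80 in the water group, −1.36, −0.31, −1.16, −0.86 and −1.84 with DSS and vehicle, and 1.22, −0.08, −0.68, −0.22 and 0.60 with filgotinib. On this scale, chosen after the values were seen and given as a description, every water mouse lay above every DSS vehicle mouse, and the filgotinib mice lay between −0.68 and 1.22. Leaving out DSS vehicle mouse 5 and filgotinib mouse 3 together, also chosen after the values were seen, gave Ramp3 −1.65 in DSS vehicle against water and +1.08 in filgotinib against DSS vehicle (limma adjusted p = 0.00267 and 0.0344). With filgotinib mouse 1 left out as well, the values were −1.65 and +1.05, and the second was not called (limma adjusted p = 0.00382 and 0.0683). With DSS vehicle mouse 5 and filgotinib mouse 3 left out, the median over the 29 members in DSS vehicle against water went from 0.46 to 0.09, and 16 instead of 23 of the 29 had a positive sign.

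**Figure D5:**
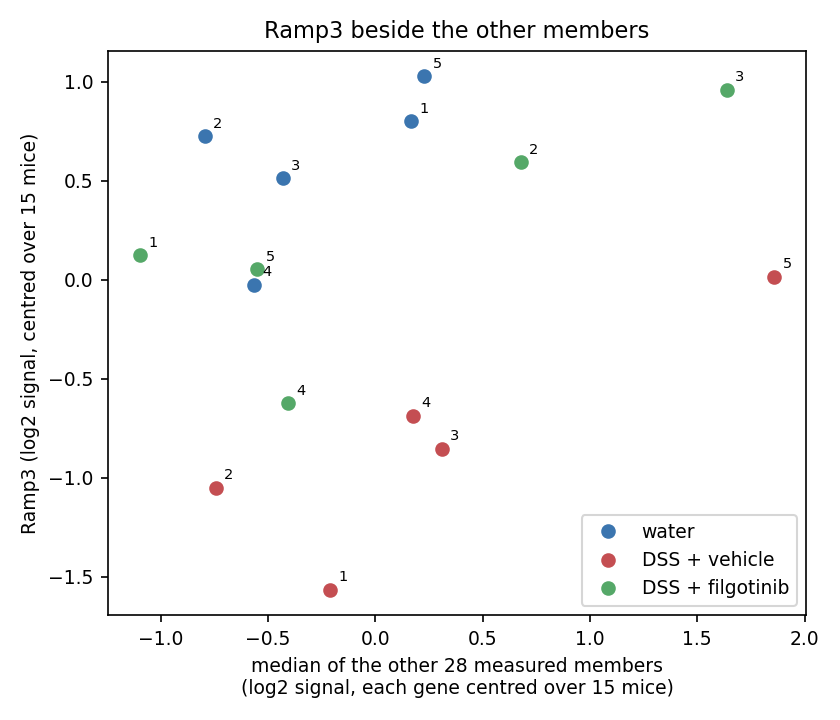
Centred log2 scaled signal of Ramp3 (vertical) against the median of the other 28 measured members (horizontal) in 15 mice, numbered within their group. At a like level of the other members, DSS vehicle mice lie below water mice, and DSS vehicle mouse 5, highest for the other members, has a Ramp3 value of 0.02.

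Other endothelial genes were read from lists that hold no member. Of 29 measured genes of a wider endothelial list, 2 rose and 1 fell in DSS vehicle against water, a smaller share than the 19.2% of all genes called there. For the filgotinib mice, 0 of the 29 were called relative to either other group. The shares of all genes were 11.3% relative to DSS vehicle and 9.83% relative to water. Aqp1, a water channel of endothelium and some epithelia, fell (log2 −2.25 ± 0.57, limma adjusted p = 0.014), from 1109 to 2275 in the water group to 77.2 to 1144 with DSS and vehicle, and ranged from 365 to 1220 with filgotinib. Palmd rose (log2 +1.66 ± 0.42, limma adjusted p = 0.0151), as did Notch4, an endothelial Notch receptor (log2 +0.43 ± 0.12, limma adjusted p = 0.0195). Of 9 measured lymphatic and high endothelial venule genes, 3 rose with DSS, where 10.8% of all genes were called higher. The centred median of this list was 1.505 in DSS vehicle mouse 5, 0.79 in filgotinib mouse 3 and −1.43 in filgotinib mouse 1, mice that also stand apart for the members. Ccl21a, a chemokine that draws T cells and dendritic cells to lymphoid tissue, rose by 3.05 ± 0.98 and Enpp2, the lysophospholipase autotaxin of high endothelial venules, by 2.28 ± 0.73 on the log2 scale (limma adjusted p = 0.0429 for each). Glycam1, a mucin-like ligand of L-selectin, rose by 1.32 ± 0.39 (limma adjusted p = 0.031). Without DSS vehicle mouse 5 none of the 3 was called, at log2 differences of +2.41, +1.74 and +1.13 (limma adjusted p = 0.0962, 0.0925 and 0.0719). None was called in filgotinib against DSS vehicle either, where their log2 differences were −0.75, −0.33 and −0.46.

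Of 16 measured angiogenic ligands and VEGF partners, 3 fell with DSS, Adm, Vegfb and Dll1, and 2 of these rose in filgotinib against DSS vehicle. These counts are near the background of 19.2% and 11.3% of all genes called in either direction. By direction, 8.41% of all genes were called lower in the first comparison and 6.79% higher in the second, below the list's shares. Vegfb, a ligand of FLT1, ranged from 574 to 705 in the water group, from 455 to 497 with DSS and vehicle and from 481 to 662 with filgotinib, with log2 changes of −0.43 and +0.30 (limma adjusted p = 0.00419 and 0.0394). Dll1, a Notch ligand, changed by −0.48 and +0.41 (limma adjusted p = 0.00924 and 0.0318). Thbs1, an inhibitor of angiogenesis, rose in filgotinib with DSS against water (log2 +0.96 ± 0.20, limma adjusted p = 0.0138).

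The integrins and other partners of these adhesion molecules on leukocytes were read as a list of 18 measured genes. Of them, 4 rose and 1 fell in DSS vehicle against water, where 19.2% of all genes were called, and 1 rose and 1 fell in filgotinib against DSS vehicle, where 11.3% were, so the second count is near the background. Itgal, the α chain of LFA-1 that binds ICAM-1, ranged from 104 to 149 in the water group, from 149 to 214 with DSS and vehicle and from 95.4 to 123 with filgotinib, with log2 changes of +0.37 and −0.61 (limma adjusted p = 0.0469 and 0.00775). Itgb7, the β chain of the MAdCAM-1 receptor, rose with DSS (log2 +1.25 ± 0.30, limma adjusted p = 0.0112), and filgotinib against DSS vehicle gave −0.88 (limma adjusted p = 0.0712). Itgb1, the β chain of the VCAM-1 receptor, which many cell types make, rose with DSS (log2 +0.35, limma adjusted p = 0.00429) and differed by +0.01 between filgotinib and DSS vehicle mice. Cd99l2, a protein of leukocyte transmigration, changed the other way, by −0.38 and +0.56 (limma adjusted p = 0.0374 and 0.0101).

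Of 17 measured inducers and NF-κB components, 4 rose with DSS, where 10.8% of all genes were called higher. In filgotinib against DSS vehicle 1 of them fell, where 4.53% of all genes were called lower, so this count is near the background. Tnf ranged from 88.5 to 119 in the water group, from 140 to 150 with DSS and vehicle and from 104 to 122 with filgotinib, so the DSS vehicle mice overlapped neither group (log2 +0.51 and −0.34, limma adjusted p = 0.00154 and 0.0224). Il1b rose by 2.22 ± 0.52 with DSS (limma adjusted p = 0.00981), and filgotinib against DSS vehicle gave −1.49 ± 0.52 (limma adjusted p = 0.0758). Ltb, lymphotoxin β, rose by 1.28 ± 0.34 (limma adjusted p = 0.0174). Irf1, a transcription factor induced by interferons, rose by 0.60 ± 0.12 (limma adjusted p = 0.00457) and gave −0.12 in filgotinib against DSS vehicle. It was also called higher in filgotinib with DSS against water (log2 +0.49, limma adjusted p = 0.0271). That call was lost in 6 of the 15 fits that left out 1 mouse.

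In DSS vehicle against water, 19.2% of all genes were called, 10.8% as higher and 8.41% as lower. Among the marker lists of other cell types in this comparison, 0 of 10 fibroblast, 0 of 9 mural and 0 of 8 smooth muscle genes were called. The brightest of these, Col1a2 and Dcn of fibroblasts, Mcam and Kcnj8 of mural cells and Acta2 and Tagln of smooth muscle, gave log2 differences of +1.81, +1.66, +0.20, −0.02, +0.20 and +1.12. Of 5 measured platelet genes 1 fell, Gp6 (log2 −0.65, limma adjusted p = 0.0413). Of 11 leukocyte genes 4 rose, among them Laptm5, Ly6g and Cd52, and of 10 epithelial genes 5 rose, among them Krt19, Krt8 and Krt18 at +0.36, +0.31 and +0.28. Cdx1, another epithelial gene, was called in filgotinib with DSS against water only (+0.33). In filgotinib against DSS vehicle, where 11.3% of all genes were called, none of these 6 lists held a called gene. Several calls on genes outside the members did not remain in each of the 15 fits that left out 1 mouse. In DSS vehicle against water, the call was lost in 11 of them for Itgal, 10 for Cd99l2, 9 each for Ccl21a, Gp6 and Ly6g, and 7 each for Enpp2, Glycam1, Laptm5 and Cd52. In filgotinib against DSS vehicle it was lost in 10 for Vegfb, 6 for Dll1 and 2 for Tnf.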

How the data were processed

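Expression in scraped colon mucosa of 15 mice was measured on 1-colour Agilent arrays, 1 mouse per array, 5 per group. The intensity of each spot was extracted by the authors with Agilent Feature Extraction 11.5.1.1, per the file headers, which subtracts background and detrends each array. The deposited table of log2 values, made by the authors with a normalization not given in the sources used here, served as an alternative. The submitters' processing notes also name limma.

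From the intensities, log2 of the processed signal minus the array's 75th percentile was computed here. Of 56605 probes, 101 with an outlier mark were left out, and no spot was saturated. Probes flagged well above background on fewer than 5 of 15 arrays were dropped, and the brightest remaining probe represented a gene, which gave 22012 genes. limma 3.58.1 in R 4.3.3 (lmFit, eBayes, two-sided) fitted the 3 groups together, with Benjamini-Hochberg adjustment over all genes, and the code was tested on simulated data. Intervals are per gene and unadjusted. The number of arrays limits the precision.

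Each sample is a separate mouse, and the numbers were not taken to pair mice of different groups. Same-numbered mice of different groups correlated in their deviations from the group means at −0.52 to 0.53. This range was not set against that of other pairs, so it cannot decide whether the numbers pair mice. All 36 members are named. Of each other list, counts are given and at most 4 genes named, those called by lowest adjusted p or, with none called, the 2 brightest. Members and lists were chosen with earlier results of these data known. Coordinates of probes are mm9, per the file headers, and promoters come from RefSeq (GRCm38.p6).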

Additional observations from a re-analysis of the deposited data

Results flagged for a closer look

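Among 87 groups of 5 mice tested (29 members in 3 groups), 1 held a mouse far from the others. For Pecam1 in the filgotinib group, mouse 4 was lowest at 187 while the other 4 mice lay between 226 and 239. On the log2 scale, the gap from mouse 4 to the nearest mouse was 0.768 of the group's range, above the critical value of 0.71. Chance alone flags about 1 in 20 such groups.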

How the results depend on the processing

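The sign of Ramp3 was the same in the 30 alternative fits of each comparison, which include 15 that left out 1 mouse. Several of these fits, such as those without a mouse of the group not compared, cannot change the log2 fold change and do not test its sign. With DSS vehicle against water, 2 members were called with normexp background correction and with the 2 groups alone (Ramp3 and Selp), 0 with slide as a fixed block (24.2%, 21.2% and 0.382% of all genes), and 1 to 2 when 1 mouse was left out. In filgotinib against DSS vehicle, the 1 call became 0 without a filter on dim probes, with the mean of all probes, with the 2 groups alone, with slide or scan day as a fixed block, with the replicate block, and without DSS vehicle mouse 5, filgotinib mouse 3 and filgotinib mouse 1 together (chosen after seeing the data). Leaving out 1 mouse gave 0 to 1 calls there, and the call remained only without water mouse 4, DSS vehicle mouse 5 or filgotinib mouse 4. In filgotinib with DSS against water, 0 calls became 4 with normexp (Aplnr, Mmrn1, Selp and Sox17, each higher) and 2 without the filter (Flt4 and Sele, both at background on 15 of 15 arrays), where 20.2% and 24.5% of all genes were called, against 9.83%, and stayed at 0 when 1 mouse was left out. The median log2 fold change of all genes in that comparison was 0.12 with normexp and 0.16 without the filter, against 0.05. The causes of these changes were not tested.

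The mouse numbers were not taken to pair the samples. With the replicate block, 1 member was called in DSS vehicle against water, 0 in filgotinib against DSS vehicle (Ramp3 adjusted p = 0.0587) and 0 in filgotinib with DSS against water. With slide as a fixed block the median over the 29 members was −0.58, −0.68 and −1.42 in the 3 comparisons, against 0.46, −0.21 and 0.23. The first 2 values rest on 1 to 3 mice per group on a slide. No slide held both water and filgotinib mice, so the −1.42 joins these groups only through DSS vehicle mice. With scan day as a fixed block the median was 0.41, −0.51 and −0.19. Leaving out 1 mouse moved the median between 0.09 and 0.76, between −0.59 and 0.18, and between −0.07 and 0.55. Over the 15 members with a probe well above background on 15 of 15 arrays, the median was 0.10, −0.12 and 0.16 in these comparisons. Gp6 changed sign to +0.039 in DSS vehicle against water with slide as a fixed block and within its slide, and Krt19 to −0.038 in filgotinib with DSS against water in the deposited table. Signals near background limit Cdh5, Selp, Aplnr, Mmrn1, Ackr1, Sox17 and Sox18. In the filgotinib group they also limit Esam and Flt1, well above background on 2 of 5 arrays, and Emcn, Eng, Kdr and Vcam1, on 3 of 5.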
